A study of Arabidopsis thaliana with 22 samples.

Results

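The comparison is between leaf 10 of Arabidopsis thaliana plants grown at elevated CO2 (750 ppm) and at ambient CO2 (370 ppm), with 1 CO2 effect estimated across 3 stages in the life of that leaf. It takes in all 22 arrays of the study, 11 elevated and 11 ambient. The elevated arrays comprised 4 of primordia, 3 of leaves in rapid expansion and 4 of mature leaves, and the ambient arrays were split in the same way. All plants were wild-type Col-0, and the labels name no transgene or mutation in either group. After cold treatment every plant spent 7 days at 370 ppm. Days lasted 10 h, at 21 °C and a light level of 300 µmol per square metre and second, and nights lasted 14 h, at 18 °C. Plants were then randomized between 2 growth chambers with CO2 control. No label says that the chambers exchanged their CO2 levels, and the effects of CO2 and of the chamber cannot be told apart. The labels speak of biological replicates, each of 20 pooled plants for primordia. The number of plants behind an expanding or mature leaf sample is not stated there, and p-values measure the spread between these samples. The series title puts the stage specificity of the CO2 response of dark respiration as the question, and the effect described here is the one that the stages have in common.

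In a C3 plant such as Arabidopsis, CO2 competes with oxygen at Rubisco, the enzyme that fixes carbon. More CO2 raises carbon fixation and lowers photorespiration, the pathway that recycles the product of the oxygen reaction. The added carbohydrate can be stored as starch, exported as sucrose or respired, and sugar accumulation is known to lower transcripts of photosynthesis genes.

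Levels are log2 values relative to the median probe set of the same array, so a level of 0 is that median and 1 unit is a doubling. Differences are elevated minus ambient CO2 on the same scale. The model added CO2 to stage, so that a leaf was set only against leaves of its own stage, and it gave each of 12511 probe sets 1 shared difference with a moderated standard error (SE) from limma. A probe set was called at a Benjamini-Hochberg adjusted p under 0.05 over all 12511. A probe set is named where the annotation gave it exactly 1 gene, which held for 6782. In tissue samples, fewer cells of a type and less RNA per cell cannot be told apart.

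Stage accounted for most of the variation, with 81.3% of the variance on the first principal component. Replicates of a group correlated with r between 0.969 and 0.992 over probe sets. The stage labels were checked against marker genes. Summed levels of 2 cell cycle genes lay between 2.11 and 2.50 in primordia and between -1.0 and -0.29 in mature leaves. Expanding leaves lay between 0.05 and 0.36 at elevated CO2 and between 0.42 and 0.63 at ambient CO2, without overlap. There, 3 leaf primordium regulators (1.61 to 1.70 at elevated, 1.73 to 1.80 at ambient CO2) were also apart. So were 2 stomatal genes (2.03 to 2.40 and 2.42 to 2.67), while light reaction, Calvin cycle and trichome genes overlapped. Of all probe sets, 20.4% were apart in expanding leaves. On the first principal component the elevated expanding arrays lay at -23.6, -31.0 and -32.4. The ambient expanding arrays lay at -21.5, -10.5 and -11.3, and mature arrays between -63.9 and -50.2. Whether expanding leaves of the CO2 levels had reached the same point of development was not tested. The marker lists of xylem, phloem, shoot meristem, epidermis and flower had no named probe set and were not analysed here. Once the stage means were removed, the first component held 26.7% of what was left. On it the elevated expanding arrays lay at -3.4, -7.7 and -16.8, against 0.3, 11.8 and 15.7 for the ambient expanding arrays. Elevated mature replicates 3 and 4 stood apart at -30.8 and -19.2 and ambient mature replicate 1 at 30.1, while the other mature arrays lay between -2.1 and 8.9 and all primordia between -2.3 and 2.2. What part this component has in the differences below was not tested, apart from refits without those 3 mature arrays.

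A shared CO2 difference passed the test for few transcripts, and most of these differences were small. limma called 54 of the 12511 probe sets (0.432%), 44 higher (0.352%) and 10 lower (0.0799%) at elevated CO2. Named genes made up 23 of the calls, 17 higher and 6 lower, or 0.339% of the named probe sets. The smallest adjusted p was 0.00716, and 1937 probe sets (15.5%) had an unadjusted p under 0.05, 879 higher (7.03%) and 1058 lower (8.46%). At an adjusted p under 0.1, 262 probe sets passed (2.09%), 167 higher and 95 lower at elevated CO2. The size of the called changes had a median of 0.57 and ran from 0.22 to 1.27, and 5 of them reached 2-fold. For 96.4% of all probe sets the 95% interval of the shared difference lay within 1.5-fold either way, and for 99.5% within 2-fold.

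The number of calls depended on single arrays. With elevated mature replicates 3 and 4 left out together, limma called 0 probe sets, the smallest adjusted p was 0.0514, and 1163 had an unadjusted p under 0.05. With ambient mature replicate 1 also left out, it also called 0, and 1049 had an unadjusted p under 0.05. Leaving out 1 array gave 21 calls without elevated expanding replicate 3, 35 without elevated primordia replicate 1, 18 without elevated mature replicate 3 and 21 without elevated mature replicate 4. Among ambient arrays it gave 22 without expanding replicate 2, 25 without expanding replicate 3, 24 without mature replicate 1, 17 without mature replicate 2 and 28 without mature replicate 3. It gave more calls without ambient expanding replicate 1 (92) and without ambient primordia replicate 2 (126), 2 arrays whose levels lay toward the elevated side for several of the genes below. All 54 kept the sign of their difference in each of these refits, which is in part given by their selection on the same arrays. The named genes AT5G19240, AT4G20830, AT1G43910, ARL, AT3G51450 and AT3G19970 were called in each of the 22 refits without 1 array. The lowest counts were 4 of 22 for AT2G31110, 5 for AT1G53290, 6 for ACA.l and AT2G36970 and 7 for AT5G48540. AT5G52750, AT1G70550 and AT1G21480 were called in 8 each, and the other named genes called in 10 to 19.

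Among genes whose products lie at the cell surface or in the wall, AT5G19240, annotated as a GPI-anchored membrane glycoprotein, had the smallest p of the named genes. Its levels in primordia were -1.18, -1.18, -0.62 and -1.26 at elevated CO2, against -2.10, -1.17, -2.21 and -2.06 at ambient CO2. In expanding leaves they were 1.29, 1.70 and 2.03 at elevated CO2, against 1.22, 0.98 and 0.46 at ambient CO2. In mature leaves they were 2.09, 2.34, 2.27 and 1.97 at elevated CO2, against 0.94, 0.95, 1.17 and 1.79 at ambient CO2. The arrays of the CO2 levels did not overlap in expanding and mature leaves, and in primordia they overlapped through ambient replicate 2 alone. The shared rise was 0.86 ± 0.13 (SE, n = 11 and 11; limma adjusted p 0.00716), a fold of 1.82, and every elevated array lay above the ambient mean of its stage.

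AT4G20830, a berberine bridge enzyme-like oxidase that acts on oligogalacturonides, the fragments of pectin, rose by a similar amount. In primordia it stood at -1.03, -1.69, -0.69 and -1.73 at elevated CO2, against -2.10, -2.45, -2.29 and -1.87 at ambient CO2. In mature leaves it stood at 1.09, 1.43, 0.92 and 1.07 at elevated CO2, against -0.42, 0.22, 0.51 and 0.75 at ambient CO2. At both of these stages all elevated arrays lay above all ambient ones, while expanding leaves overlapped, with -0.39, 0.20 and 0.41 at elevated CO2 against -0.20, -0.62 and -0.67 at ambient CO2. The shared rise was 0.79 ± 0.14 (SE, n = 11 and 11; limma adjusted p 0.0140).

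ATPMEPCRB, pectin methylesterase 41, which removes methyl groups from wall pectin, averaged -1.32 ± 0.18 at elevated and -1.77 ± 0.25 at ambient CO2 in primordia (SD, n = 4 each). It averaged 0.16 ± 0.45 at elevated and -0.19 ± 0.27 at ambient CO2 in expanding leaves (SD, n = 3 each), and 0.02 ± 0.32 and -0.73 ± 0.10 in elevated and ambient mature leaves (SD, n = 4 each). Its arrays overlapped in expanding leaves and not at the other stages, and the shared rise was 0.53 ± 0.11 (SE; limma adjusted p 0.0283). AT2G31110, the trichome birefringence-like gene TBL40 of a family that acetylates wall polysaccharides, had the smallest called change, 0.22 ± 0.05 (SE; limma adjusted p 0.0499), and lies outside the rule for named genes. Its effects were 0.23, 0.23 and 0.21 in primordia, expanding and mature leaves.

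A lectin gene and a receptor-like gene also rose. AT3G16530, a legume-type lectin, stood at 3.93, 3.85, 4.39 and 4.17 in elevated mature leaves, against 2.91, 3.05, 3.09 and 3.29 in ambient mature leaves. In primordia it stood at -0.13, -1.04, 0.35 and -1.07 at elevated CO2, against -0.94, -0.39, -1.38 and -1.24 at ambient CO2. The CO2 levels were apart in mature and in expanding leaves and mixed in primordia, where 2 of the elevated arrays lay below the ambient mean. The shared rise was 0.77 ± 0.15 (SE; limma adjusted p 0.0265). AT5G48540, a secreted protein related to receptor-like kinases, stood at the edge of the threshold with a shared rise of 0.89 ± 0.20 (SE; limma adjusted p 0.0499). Its mean effects were 0.88, 0.88 and 0.91 in primordia, expanding and mature leaves. Arrays overlapped in primordia and expanding leaves. Primordia stood at -2.68, -3.69, -2.33 and -3.02 at elevated CO2, against -3.60, -3.51, -5.09 and -3.05 at ambient CO2, so their effect leaned on ambient replicate 3. The gene was called in 7 of the 22 refits without 1 array.

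AT1G43910, an AAA-type ATPase, had the largest shared rise of the named genes called, 1.03 ± 0.19 (SE; limma adjusted p 0.0151), a fold of 2.04. Its levels were 0.85, 0.67, 1.27 and 0.77 in elevated mature leaves, against -0.90, -0.34, -0.29 and 0.00 in ambient mature leaves. In primordia they were -3.29, -3.08, -2.92 and -3.34 at elevated CO2, against -4.08, -3.92, -3.17 and -3.69 at ambient CO2. In expanding leaves they were -0.42, 0.00 and 0.59 at elevated CO2, against -0.17, -1.60 and -2.10 at ambient CO2. The arrays were apart in mature leaves, and overlapped through ambient replicate 3 in primordia and through ambient replicate 1 in expanding leaves. Its effect in primordia was 0.56, against 1.34 in expanding and 1.27 in mature leaves. These effects were not shown to differ between stages (moderated F in limma, adjusted p 0.518).

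**Figure D1:**
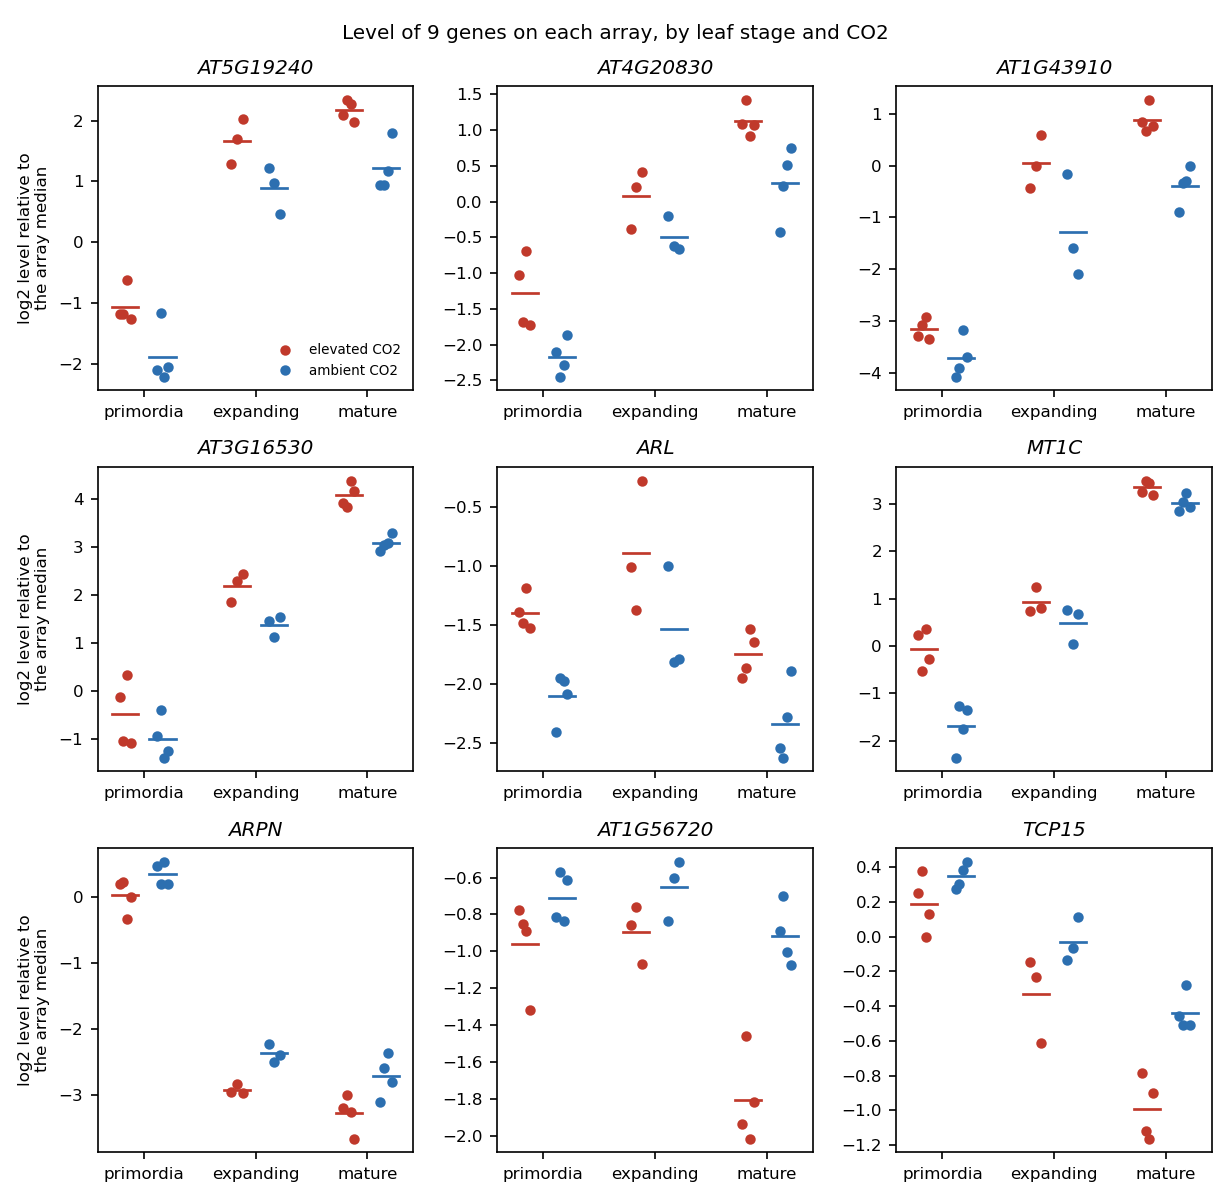
Level of 9 called genes on each array (log2, relative to the array median), with elevated CO2 left of ambient CO2 at each leaf stage; points are arrays and bars group means. Most of the genes span several log2 units between stages, while ARL, TCP15 and AT1G56720 span less. The CO2 levels lie apart at some stages and overlap at others.

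ARL (AT2G44080, ARGOS-like), which promotes organ growth through cell expansion, stood at -1.38, -1.48, -1.18 and -1.52 in elevated primordia, against -2.40, -1.95, -1.97 and -2.08 in ambient primordia. In mature leaves it stood at -1.95, -1.86, -1.53 and -1.64 at elevated CO2, against -2.54, -2.62, -2.28 and -1.89 at ambient CO2. Primordia were apart, and mature leaves overlapped through ambient replicate 4. Expanding leaves overlapped through ambient replicate 1, with -1.01, -1.37 and -0.275 at elevated CO2 against -0.997, -1.81 and -1.78 at ambient CO2. The mean effects of ARL were among the most even, 0.71, 0.65 and 0.59 in primordia, expanding and mature leaves. Its shared rise was 0.65 ± 0.12 (SE; limma adjusted p 0.0151).

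TCP15 (AT1G69690), a transcription factor of the class that regulates cell proliferation and endoreduplication in leaves, fell. Its levels in mature leaves were -0.79, -1.12, -1.16 and -0.90 at elevated CO2, against -0.46, -0.51, -0.28 and -0.51 at ambient CO2, with no overlap. Primordia differed by -0.16 and their arrays overlapped. The shared fall was -0.34 ± 0.07 (SE; limma adjusted p 0.0400). ARPN, plantacyanin, a blue copper protein known from pollen tube guidance and anther development, had the smallest p of the named falls. Its levels were -2.96, -2.82 and -2.96 in elevated expanding leaves, against -2.22, -2.49 and -2.38 in ambient expanding leaves, with no overlap. In mature leaves it stood at -3.19, -3.0, -3.25 and -3.65 at elevated CO2, against -3.11, -2.58, -2.37 and -2.79 at ambient CO2, with ambient replicate 1 inside the elevated range. The shared fall was -0.47 ± 0.09 (SE; limma adjusted p 0.0247), and all 11 elevated arrays lay below the ambient mean of their stage.

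The other falls were in a kinase, in members of glycosyltransferase families and in AT1G70550. AT1G56720, a protein kinase, stood at -1.94, -1.46, -2.01 and -1.82 in elevated mature leaves, against -0.89, -0.70, -1.0 and -1.07 in ambient mature leaves, with no overlap. Its effect was -0.25, -0.25 and -0.89 in primordia, expanding and mature leaves, and the shared fall was -0.48 ± 0.10 (SE; limma adjusted p 0.0337). The difference between its stages had an unadjusted p of 0.00358 and an adjusted p of 0.201 in limma. AT1G21480, of the exostosin family, fell by 0.34 and AT1G53290, of the galactosyltransferase family, fell by 0.27 (limma adjusted p 0.0410 and 0.0499). AT1G70550 had a shared change of -0.38 ± 0.08 (SE; limma adjusted p 0.0396).

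MT1C, AT5G52750 and ACA.l, known or annotated for metal binding or membrane transport, rose. MT1C (AT1G07610), a metallothionein, a small cysteine-rich protein that binds copper and zinc, stood at 0.23, -0.52, 0.35 and -0.28 in elevated primordia, against -2.36, -1.28, -1.75 and -1.34 in ambient primordia. In mature leaves it stood at 3.25, 3.49, 3.45 and 3.20 at elevated CO2, against 2.85, 3.04, 3.22 and 2.92 at ambient CO2. Primordia were wide apart, and at the other stages the arrays overlapped. Its shared rise of 0.84 ± 0.18 (SE; limma adjusted p 0.0381) was made of 1.63, 0.45 and 0.34 in primordia, expanding and mature leaves. MT1C was the single called probe set that also passed within primordia (limma adjusted p 0.00338), and the difference between its stages had an unadjusted p of 0.000754 and an adjusted p of 0.196. A near-identical metallothionein lies beside it in the genome, and cross-hybridisation was not tested.

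AT5G52750, with a heavy-metal-associated domain, had effects of 0.97, 1.16 and 0.77 in primordia, expanding and mature leaves and a shared rise of 0.95 ± 0.21 (SE; limma adjusted p 0.0499). Ambient mature replicate 4, at 0.95, lay inside the elevated mature range of 0.48 to 1.14, and ambient expanding replicate 1, at 0.15, inside that of elevated expanding leaves. ACA.l, annotated as a P-type ATPase, rose by 0.40 ± 0.09 (SE; limma adjusted p 0.0499), with its largest effect, 0.63, in expanding leaves.

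The remaining named rises were in enzymes and a cold-related gene. AT1G73600, a phosphoethanolamine methyltransferase of phosphatidylcholine synthesis, stood at 0.84, 0.84, 0.85 and 0.89 in elevated primordia, against 0.38, 0.75, 0.22 and 0.70 in ambient primordia. It was apart there and in mature leaves, and its shared rise was 0.39 ± 0.08 (SE; limma adjusted p 0.0282). AT3G51450, of the strictosidine synthase-like family, stood at -0.33, 0.31, 0.16 and 0.52 in elevated mature leaves, against -0.78, -0.89, -0.63 and -0.40 in ambient mature leaves, and rose by 0.57 ± 0.11 (SE; limma adjusted p 0.0151). AT3G19970, an alpha/beta hydrolase, stood at -2.55, -2.25, -2.38 and -2.19 in elevated mature leaves, against -3.19, -3.23, -2.96 and -2.96 in ambient mature leaves. Its shared rise was 0.48 ± 0.085 (SE; limma adjusted p 0.0140), with effects of 0.27, 0.40 and 0.74 in primordia, expanding and mature leaves.

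SRC2, whose soybean counterpart was found as a cold-regulated gene, had an effect of 0.11 in primordia, against 0.57 in expanding and 0.53 in mature leaves, and a shared rise of 0.39 ± 0.08 (SE; limma adjusted p 0.0279). The arrays of its CO2 levels were apart in both leaf stages and overlapped in primordia. The UDP-glycosyltransferase gene AT2G36970 rose by 0.39 ± 0.09 (SE; limma adjusted p 0.0499). AT1G13000, outside the rule for named genes, rose by 0.33 ± 0.07 (SE; limma adjusted p 0.0381).

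**Figure D2:**
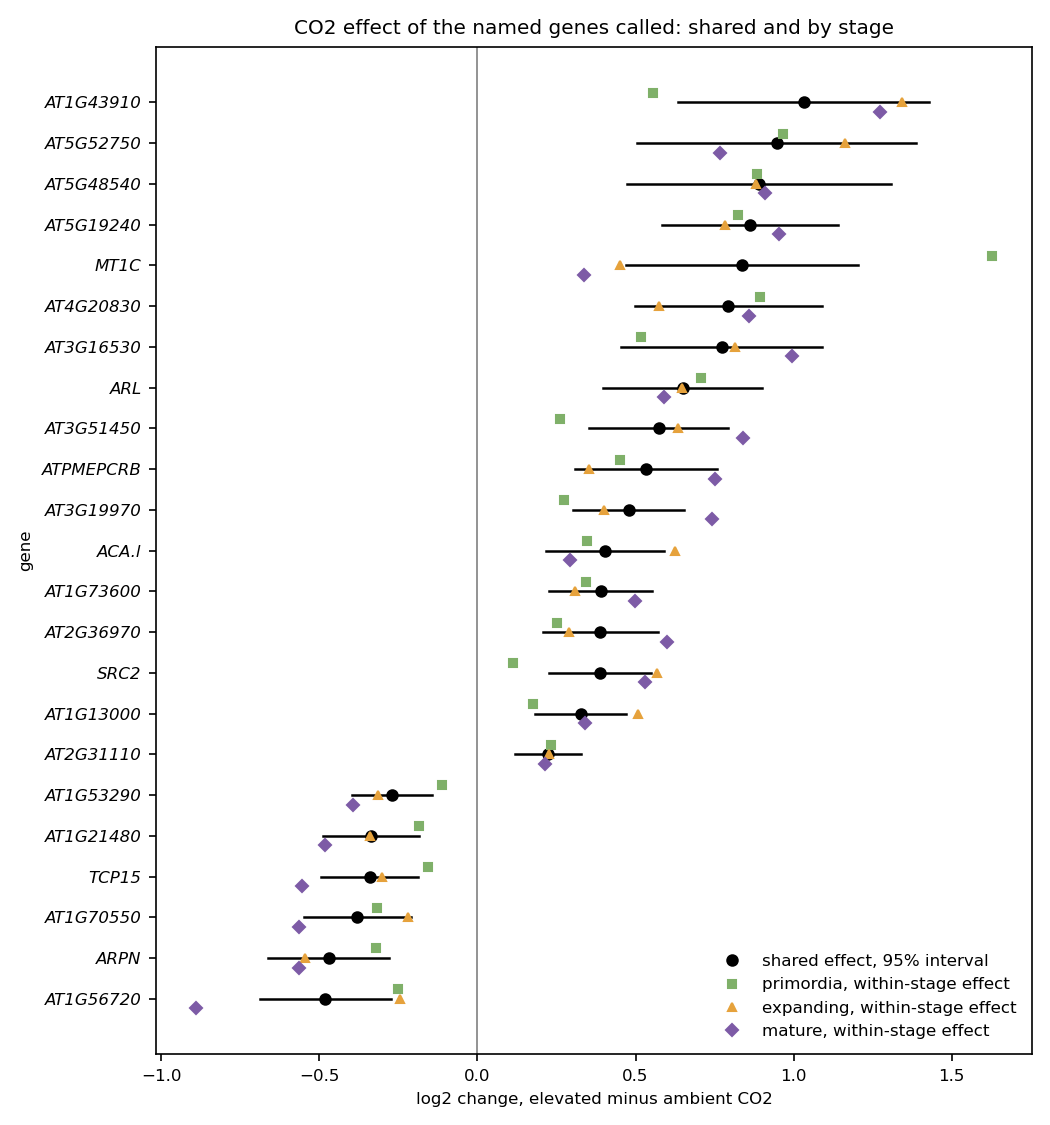
Shared log2 difference, elevated minus ambient CO2, of the 23 named genes called, with its 95% interval (black), and the difference within each stage (coloured). The 17 rises and 6 falls keep 1 sign at all stages, and 14 of the 23 have their largest effect in mature leaves, a count with no share over all probe sets beside it.

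The 31 called probe sets without a single gene name included the largest change of all. Probe set 251673_at stood at 0.96, 0.50, 1.56 and 1.26 in elevated mature leaves, against -1.38, -0.36, -0.35 and 0.45 in ambient mature leaves. Its shared rise was 1.27 ± 0.22 (SE; limma adjusted p 0.0140), with effects of 0.65, 1.80 and 1.48 in primordia, expanding and mature leaves. Probe set 255742_at, singled out after its values were seen, was the 1 of 12511 (0.00799%) whose elevated arrays all lay above the ambient arrays at every stage. In primordia it stood at -0.42, -0.42, -0.35 and -0.47 at elevated CO2, against -0.71, -0.52, -1.17 and -0.64 at ambient CO2, and its shared rise was 0.43 ± 0.08 (SE; limma adjusted p 0.0140). Unnamed falls included -0.50 ± 0.11 for 247965_at and -0.31 ± 0.06 for 252983_at (SE; limma adjusted p 0.0499 and 0.0247).

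The called differences were also read stage by stage. All 54 had differences of 1 sign at the 3 stages, against 28.5% of all probe sets, which is in part what the shared test selects. The median size of the called differences by stage was 0.45 for primordia, 0.57 for expanding leaves and 0.61 for mature leaves. The largest of the 3 was in mature leaves for 25 of them, in expanding leaves for 16 and in primordia for 13. Within single stages, 23 of the 54 also passed the adjusted threshold in mature leaves, 1 in primordia and 0 in expanding leaves. The same shares over all probe sets are not given here, so these counts do not show a lean to mature leaves particular to the 54.

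Arrays did not overlap, in the direction of the call, for 21 of the 54 in primordia, 28 in expanding leaves and 34 in mature leaves. Over all probe sets and in either direction, the shares were 3.22%, 20.4% and 9.22%. The higher shares among the 54 are in part given by their selection on the same arrays. Expanding leaves had 3 arrays a group, where groups are apart more often. The limma F test of a difference between stages passed for 0 of the 54, whose smallest adjusted p was 0.196, and 6 of them had an unadjusted p under 0.05. Over all probe sets it passed for 4 (0.0320%), with 1724 (13.8%) at an unadjusted p under 0.05. A p that missed the threshold does not show equal effects.

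Each stage was also left out in turn. Without the mature arrays limma called 0 probe sets, the smallest adjusted p was 0.147, and 850 had an unadjusted p under 0.05. Without the expanding arrays it called 3, and without the primordia arrays 174, of which 116 were higher and 58 lower at elevated CO2. In mature and expanding leaves alone, AT1G43910 differed by 1.3 and AT3G16530 by 0.92, and MT1C by 0.39, where MT1C no longer passed (limma adjusted p 0.0840). Without the mature arrays AT5G19240 differed by 0.81, AT4G20830 by 0.76 and ARL by 0.68, none past the threshold (limma adjusted p 0.240 for each).

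**Figure D3:**
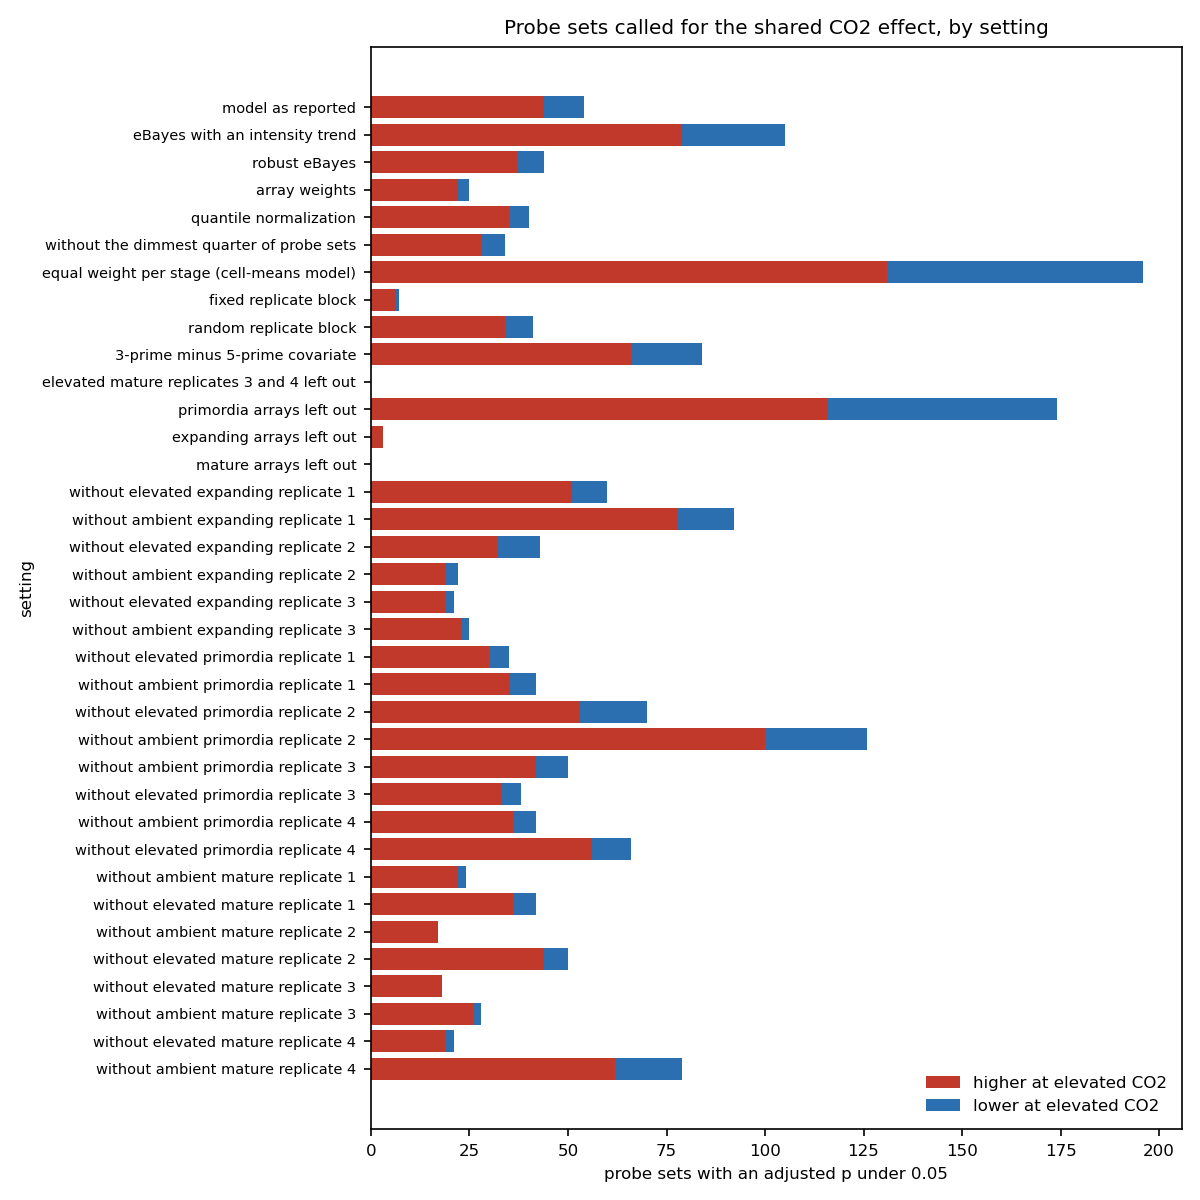
Number of probe sets called for the shared CO2 effect (adjusted p under 0.05) under each setting of the model and with each array or stage left out, split into higher and lower at elevated CO2. Counts run from 0, without the mature arrays or without elevated mature replicates 3 and 4, to 196. The 196 came with equal weight per stage in a model of the 6 groups of stage and CO2, which also changes the residual spread.

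Genes of primary metabolism were read as groups. Lists of 921 genes in 38 groups had 183 members on named probe sets, in 27 of the groups, and 1 of the 183, MT1C, was called, against 0.339% of all named probe sets, a share too close to theirs to set the lists apart. Lists of trehalose and sugar signalling, nitrogen assimilation, flavonoid, aquaporin, auxin and phosphate starvation genes had no member to read. Measured genes are here those with a named probe set. Over all 12511 probe sets the shared difference was positive for 5460 and negative for 7051 (56.4%), with a median of -0.02, and the groups are set against that.

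Of 75 measured genes of glycolysis, the TCA cycle and mitochondrial electron transport, 0 passed in limma, and 6 (8.0%) had an unadjusted p under 0.05, against 15.5% of all probe sets. Their median was 0.02, with 44 positive and 31 negative, and the 95% intervals lay between -0.25 and 0.46. All 75 were within 1.5-fold either way, as were 96.4% of all probe sets. The TCA cycle, which oxidises acetyl groups in the mitochondrial matrix, had 13 of 17 genes positive with a median of 0.07, and medians of 0.02, -0.02 and 0.17 in primordia, expanding and mature leaves. Its smallest p was that of AT4G26910, a subunit of 2-oxoglutarate dehydrogenase, at 0.24 ± 0.08 (SE; limma adjusted p 0.157), with 0.06, 0.12 and 0.51 in primordia, expanding and mature leaves. SDH1-1, the flavoprotein subunit of succinate dehydrogenase, differed by 0.15 ± 0.06 (SE; limma adjusted p 0.248).

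The 47 electron transport genes had 27 positive differences and a median of 0.02, and CYTC-2, cytochrome c, differed by 0.15 ± 0.07 (SE; limma adjusted p 0.285). The 11 glycolysis genes had 4 positive differences and a median of -0.03, and the sign of this median turned (0.04) without the expanding arrays. AT5G63680, a pyruvate kinase, differed by 0.25 ± 0.10 and ENOC, an enolase family gene, by -0.13 ± 0.055 (SE; limma adjusted p 0.226 and 0.254). Without the mature arrays the median of all 75 was -0.01, with 33 positive. NDB2, which oxidises cytosolic NADH at the inner mitochondrial membrane without pumping protons, differed by 0.51 ± 0.21 (SE; limma adjusted p 0.239), from effects of -0.23, 0.91 and 0.96 in primordia, expanding and mature leaves, so its stages did not share a sign.

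All 26 genes measured from 4 lists of photosynthesis and linked pathways had negative shared differences, and none was called. Of the light reactions 8 of 8 measured genes had a negative shared difference, of the Calvin cycle 4 of 4, of photorespiration 7 of 7 and of chlorophyll synthesis 7 of 7. The lists hold 50, 26, 23 and 22 genes, so most members had no named probe set. Whether probe sets without a single gene name stand for some of them is not known here. Genes encoded in the plastid are given apart below, and 13 of 69 of those were positive. Over these 26 genes the median was -0.11, limma called 0, and 6 (23.1%) had an unadjusted p under 0.05, against 15.5% of all probe sets. With so few genes this is not read as an excess, and the share moved with the setting. With stage and replicate number as a fixed block it was 15.4%, against 14.4% of all probe sets. With the 3-prime minus 5-prime signal as a covariate it was 3.85%, against 15.8%. The share was 11.5% with quantile normalization, against 15.1% of all probe sets, and 3.85% with array weights, against 11.9%. Without elevated mature replicates 3 and 4 it was 3.85%, against 9.30%. It was 34.6% with equal weight per stage in the model of the 6 groups, against 17.3%, and 38.5% without the primordia arrays, against 21.9%. Medians in primordia, expanding and mature leaves were 0.02, -0.09 and -0.17 for the light reactions, -0.04, -0.05 and -0.17 for the Calvin cycle, -0.05, -0.09 and -0.23 for photorespiration and 0.09, -0.24 and -0.25 for chlorophyll synthesis. In primordia the 4 medians thus lay on both sides of 0.

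HPR, the peroxisomal hydroxypyruvate reductase of photorespiration, had the smallest p of the 26, at -0.20 ± 0.07 (SE; limma adjusted p 0.177). PSAN, a subunit of photosystem I, differed by -0.19 ± 0.08, PORB, which reduces protochlorophyllide in light, by -0.17 ± 0.08, and PRK, phosphoribulokinase, by -0.12 ± 0.07 (SE; limma adjusted p 0.288, 0.299 and 0.379). The 95% intervals of all 26 lay between -0.41 and 0.12. With quantile normalization 24 of the 26 were negative and their median was -0.06, and with elevated mature replicates 3 and 4 left out all 26 were negative with a median of -0.06. Without the mature arrays 23 were negative, with a median of -0.05. Genes encoded in the plastid, grouped after the values were seen, had 56 of 69 negative differences and a median of -0.09, with 0 called and 1 at an unadjusted p under 0.05, and the median was -0.02 without elevated mature replicates 3 and 4.

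No measured carbohydrate gene was called. Of 7 genes of sucrose metabolism and sugar transport, 4 were negative (57.1%, against 56.4% of all probe sets). Their median was -0.18, with -0.03, 0.07 and -0.20 in primordia, expanding and mature leaves, and it was -0.05 without the primordia arrays and -0.06 without the mature arrays. The tonoplast sugar transporters TMT2 and TMT1, which load sugars into the vacuole, differed by -0.24 ± 0.08 and -0.18 ± 0.075 (SE; limma adjusted p 0.138 and 0.254), and AT2G35840, a sucrose-phosphate phosphatase, by -0.19 ± 0.07 (adjusted p 0.174). TMT1 had effects of -0.01, 0.07 and -0.53 in primordia, expanding and mature leaves. Starch genes had 4 of 5 negative and a median of -0.05. In the oxidative pentose phosphate pathway, AT5G41670, a 6-phosphogluconate dehydrogenase, differed by 0.38 ± 0.10 and AT1G12230, a transaldolase family gene, by -0.23 ± 0.07 (SE; limma adjusted p 0.0900 and 0.0938).

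Defence and stress genes held several of the larger uncalled differences of the lists. PDF1.2, a plant defensin induced by jasmonate and ethylene, differed by 1.05 ± 0.26 (SE; limma adjusted p 0.0636), with 0.39, 0.82 and 1.88 in primordia, expanding and mature leaves. It passed in 5 of the 36 alternative settings, among them that without ambient primordia replicate 2 (limma adjusted p 0.0280). The cold-regulated chloroplast proteins COR15A and COR15B differed by -0.52 ± 0.15 and -0.50 ± 0.14 (SE; limma adjusted p 0.0957 and 0.0900), while COR47, a dehydrin, differed by 0.02 ± 0.11. Sulfate assimilation and glucosinolate genes had 4 of 5 positive differences and a median of 0.16, with the sulfite reductase gene SIR at 0.16 ± 0.05 (SE; limma adjusted p 0.165). Of the 3 heat shock and chaperone genes, AT3G09440, a cytosolic HSP70, differed by 0.33 ± 0.14 (SE; limma adjusted p 0.252), with 0.95 in mature leaves, and Hop1, a co-chaperone, lay at 0.002 ± 0.06 (SE). The median of the 3 was 0.20, and -0.03 without the mature arrays.

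Of 7 antioxidant and metallothionein genes, 1 rose, MT1C, and 4 were negative (3 without the expanding arrays), among them the thylakoid ascorbate peroxidase TAPX at -0.25 ± 0.10 (SE; limma adjusted p 0.213). Of 8 cell wall loosening and cellulose synthesis genes, 5 were negative, with the expansin EXPA8 at -0.43 ± 0.16 (SE; limma adjusted p 0.191). The stomatal gene FMA, the transcription factor FAMA of guard cell differentiation, differed by -0.22 ± 0.10 and STOMAGEN, the peptide that promotes stomatal formation, by -0.38 ± 0.21 (SE; limma adjusted p 0.316 and 0.396). STOMAGEN had effects of 0.09, -0.30 and -0.90 in primordia, expanding and mature leaves. Its shared value was -0.19 without elevated mature replicate 3 and -0.06 without elevated mature replicates 3 and 4. The trichome patterning gene TRY differed by -0.33 ± 0.12 and the mitotic kinase AUR1 by -0.32 ± 0.14 (SE; limma adjusted p 0.179 and 0.286). Leaf primordium regulators had 3 of 3 negative differences, with YAB3, a YABBY factor of leaf polarity, at -0.19 ± 0.075 (SE; limma adjusted p 0.230). Of 3 lipid and wax genes, ACS differed by 0.22 ± 0.075 (SE; limma adjusted p 0.159). The 11 autophagy genes had 8 positive differences and a median of 0.03, which turned to -0.04 with 2 positive without the expanding arrays. The 8 ribosome and translation genes had 2 positive differences and a median of -0.06, which turned to 0.05 with 7 positive without the expanding arrays.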

How the data were processed

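The authors deposited a table of log2 expression values from Affymetrix arrays hybridised with biotin-labelled RNA, amplified with a 3-prime kit per the labels. Each array's deposited log2 values have a median of 0, so a change common to most transcripts is not visible. Base 2 was read from their span (-6.8 to 6.54), and folds assume it. How background was corrected and probes were summarised is not given in the sources used here. The number of arrays limits the precision. Of 12570 probe sets, 59 controls were left out. The platform annotation, updated through the TAIR10.1 gene table, gave 1 gene to 6782 probe sets, several to 262 and none to 5467.

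The shared effect was fitted with limma 3.58.1 in R 4.3.3 (lmFit and eBayes, stage plus CO2, 18 residual degrees of freedom). Effects within stages, and the moderated F test of their difference, came from the model of the 6 groups. All tests were two-sided, with p-values adjusted by Benjamini-Hochberg over 12511 probe sets. A gene in a list was represented by its named probe set with the highest mean. Lists are described by counts and medians, without a test. The genes named are the 14 largest changes and the 6 smallest p in each direction among called named probe sets, the 5 called ones with the smallest p of a difference between stages, and, from each list, up to 3 of the smallest p, of which the text prints some. The comparison, the lists and the rule for named genes were chosen with earlier results of these data known. The scripts were tested on simulated data. Alternatives changed the variance model, weights, scaling, filter, covariates and arrays used. Scan batches were not tested, since no scan date was given.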

Additional observations from a re-analysis of the deposited data

Results flagged for a closer look

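In each group of 4 arrays, the highest and lowest level of each of the 23 named genes called were compared with the others. Dixon's gap test at the 95% level marked 5 of 92 groups, and chance marks about 1 in 20. AT5G19240 stood at -0.62 on elevated primordia replicate 3, with the other elevated primordia between -1.26 and -1.18, and at -1.17 on ambient primordia replicate 2, with the other ambient primordia between -2.21 and -2.06. AT3G51450 stood at -1.22 on elevated primordia replicate 3, with the others between -0.87 and -0.85. AT1G73600 stood at 0.89 on elevated primordia replicate 4, with the others between 0.84 and 0.85, a gap that is small in absolute terms. AT2G36970 stood at 0.01 on ambient mature replicate 2, with the others between 0.23 and 0.28.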

How the results depend on the processing

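The 54 calls for the shared CO2 effect became 105 with an intensity trend in the variance, 25 with array weights and 34 without the dimmest probe sets (those below the 0.25 quantile of mean level). They became 196 with equal weight per stage and 84 with the 3-prime minus 5-prime signal as a covariate. Equal weight per stage was fitted in the model of the 6 groups, so the residual spread changed along with the weights. The median change over all probe sets was -0.020 there, against -0.018 in the additive model. They became 174 without primordia, 3 without expanding leaves, 0 without mature leaves, 0 without elevated mature replicates 3 and 4, and 0 also without ambient mature replicate 1, an alternative chosen after seeing the data. Calls with robust variances (44) and quantile normalization (40) stayed within 1.5 times. Leaving out 1 array gave 17 to 126 calls. The single called list member became 2 with the trend, 5 with equal weight per stage, 5 without primordia, 0 without expanding leaves, 0 without mature leaves, 0 without elevated mature replicates 3 and 4, 0 also without ambient mature replicate 1, and 0 to 2 with 1 array left out. The 4 probe sets that differed between stages became 9 without elevated mature replicates 3 and 4, 47 also without ambient mature replicate 1, and 0 to 12 with 1 array left out. With stage and replicate number as a fixed replicate block, 7 probe sets were called, 0 list members and 0 differences between stages, and with a random replicate block 41 were called. Same-numbered arrays of the CO2 levels correlated with r between -0.25 and 0.26, above 0.1 in 4 of 11 pairs. Of the 11 elevated arrays, 3 correlated best with their own number. With so few pairs, these values cannot decide whether same-numbered arrays shared a harvest or a processing step. The cause of these moves was not tested, beyond the smaller number of arrays or probe sets in some of them. All 54 kept their sign under every alternative in which they were tested, in part because they were selected on these same arrays. Small differences lie near the spread between arrays, whose median residual SD was 0.14, 0.16 and 0.18 in primordia, expanding and mature leaves.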
